A study of Mus musculus with 2 samples.

Results

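Cadherins, protocadherins and the catenins that bind them were compared between 2 mouse RNA-seq libraries. The members were all rows of the expression table whose symbol was Cdh or Fat with a number, began with Pcdh, Dchs or Celsr, or was Ctnna1, Ctnnb1 or Ctnnd1. This gave 105 of 23466 rows in 13 families, of which 36 reached 1 FPKM in either library. FPKM is the number of fragments per kilobase of transcript, scaled to the size of the library, so levels of different genes can be set side by side. Both libraries came from mouse cells whose label is primary microglia, macrophages of the central nervous system, and no strain or age is given in the sources used here. The control library was given DMSO, the vehicle. The treated library was given 1600 μM iron together with 1 μM RSL3, an inactivator of the lipid hydroperoxidase GPX4, a pair of agents known to cause death by iron-driven lipid peroxidation (ferroptosis). There was 1 library per condition, so the differences below describe these libraries, have no error and no p-value, and were called only by a size rule of 2-fold.

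Classical cadherins are single-pass membrane proteins that bind like cadherins on neighbouring cells through calcium-dependent extracellular repeats. Their tails hold β-catenin and p120-catenin, and α-catenin links the complex to actin. Protocadherins carry more repeats and lack the catenin-binding tail. The clustered ones come from 3 gene clusters, α, β and γ, and are known for giving neurons a cell-surface identity. Genes of the α and γ clusters join a variable first exon to shared exons. FAT, Dachsous and CELSR proteins are giant cadherins of planar cell polarity, the alignment of cells within a sheet. In the brain, adhesion by N-cadherin and OB-cadherin is best known from neural, meningeal and mural cells and from fibroblasts, and it is no defining trait of microglia.

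The labelled cell type was checked against its markers. Of 15 microglia and macrophage markers, 7 reached 1 FPKM in either library. Among these were Tmem119 at 59.1 and 26.1 FPKM and Cd68 at 3.36 and 10.4 FPKM, and Trem2, Tyrobp, C1qa and C1qb lay between 0.485 and 3.02 FPKM. Aif1, Cx3cr1 and Fcrls were listed at 0 in both libraries, P2ry12 was at 0.0506 and 0.0356 FPKM, and Csf1r at 0.471 and 0.394 FPKM. Ptprc, the pan-leukocyte marker CD45, was at 0.0653 and 0.108 FPKM. All 15 fibroblast and mesenchymal markers reached 10 FPKM in both libraries and summed to 8747 and 8523 FPKM. The cadherin values below are thus those of cultures in which several defining microglial markers were at or near 0 and mesenchymal markers were abundant. In bulk RNA, fewer cells of a type and less RNA per cell cannot be told apart. Low values lay partly on steps, and if 1 step is 1 fragment the libraries held 16.5 and 17.98 fragments for each FPKM and kilobase of transcript.

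In the control library 5 members held 74.9% of the summed FPKM of the 102 cadherins and protocadherins. They were Cdh11, the γ-protocadherin Pcdhgc3, Cdh2, Fat1 and Pcdh7, and they held 76.9% in the treated library. Cdh11 made up 29.4% of the sum with DMSO and 23.9% after treatment. Pcdhgc3 made up 22.9% and 27.5%, and Cdh2 11.5% and 15.4%. By FPKM, Cdh11 led in the control library and Pcdhgc3 in the treated library. By FPKM times transcript length Cdh11 led in both, with 22.5% against 21.5% for Pcdhgc3 in the treated library. Pcdhgc3 shares 38.5% of its exonic bases with other members, so its value and its rank beside Cdh11 are uncertain. The sum itself was 569.1 FPKM with DMSO and 336.3 FPKM after treatment, a ratio of 0.591. Over all genes at 1 FPKM or more in either library, the sum had a ratio of 1.12. That sum does not show the typical gene, as the median FPKM of these genes was 10.6 with DMSO and 7.90 after treatment. Of these genes, 74.3% had the lower value in the treated library. Of the 105 members, 15 were listed at 0 in both libraries. On their longest annotated transcripts, a count of 0 allows up to 3 fragments, which is 0.0169 to 0.0704 FPKM in the control and 0.0155 to 0.0645 FPKM in the treated library, for counting error alone.

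**Figure D1:**
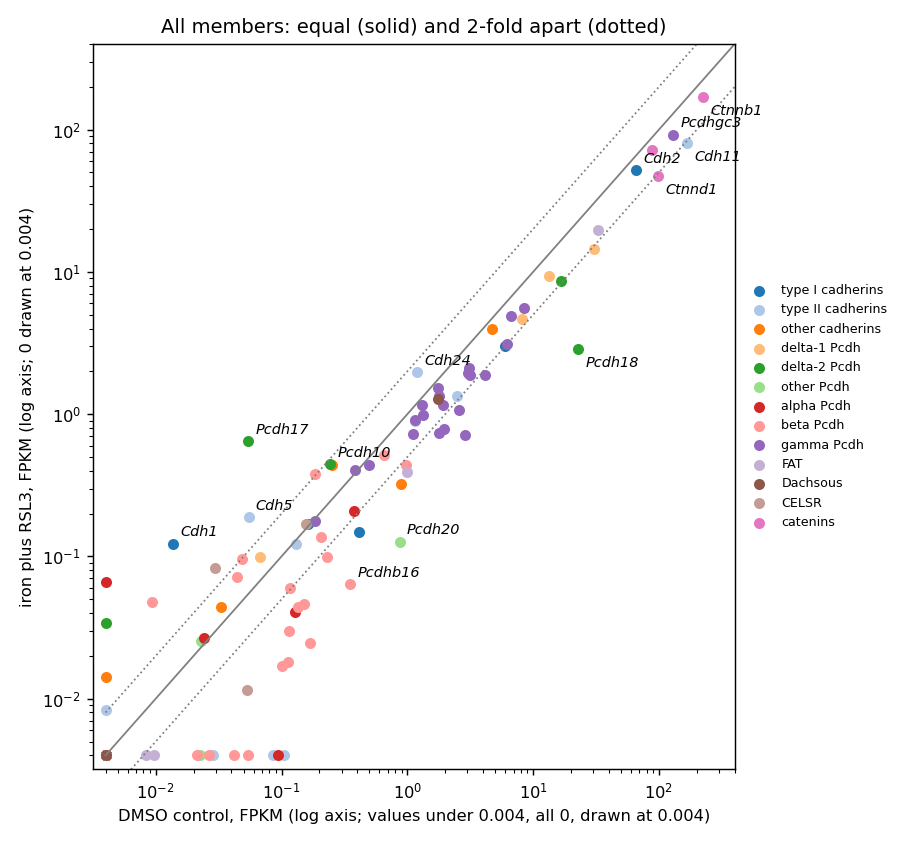
Level of all 105 members in the DMSO control (x axis, FPKM, log scale) and in the iron plus RSL3 library (y axis, FPKM, log scale), coloured by family, with zeros drawn at 0.004. The abundant members lie below the solid line of equal values, Pcdh18 lies far below the lower 2-fold line, and Pcdh17, Cdh5 and Cdh1 lie above the upper one at levels under 1 FPKM.

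The overall comparison asked whether transcripts of the cadherin families differed between the culture given iron plus RSL3 and the control. Of the 36 measured members, none was at least 2-fold higher in the treated library, where 4.25% of all 11771 measured genes were. The 2-fold lower members were Pcdh18, Pcdhga12, Cdh11, Ctnnd1 and Pcdh7, 5 of 36 or 13.9%, where 11.8% of all measured genes were, so the share is near the background. At a size rule of 1.5-fold, 14 of 36 members (38.9%) were lower, against 34.7% of all measured genes. The median log2 change of the members, on the scale of log2(FPKM + 1), was -0.49, and that of all measured genes was -0.38. This scale understates the change of weak genes.

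The log2 change was below 0 in 35 of 36 members, against 74.3% of all measured genes, and Cdh24 was the exception. As 19 of the 36 are γ genes that share exons, their signs are not independent, and without the clustered genes it was 16 of 17. With both libraries centred on the median ratio of abundant genes, the change was below 0 in 33 of 36 members and in 63.2% of all measured genes. Pcdhgb7 and Pcdhga5 then joined Cdh24 above 0. The filter itself fixed some signs, since 7 of the 36 reached 1 FPKM in the control library alone and none in the treated library alone. Pcdhga12, called lower, was among these 7. With the filter set on the mean of both libraries, chosen after seeing the data, the change was below 0 in 34 of 35 members and in 74.3% of 11333 genes. Among members at 5 FPKM or more in either library, 4 of 16 were at least 2-fold lower, against 11.7% of all genes at that level, and the median log2 change was -0.71 against -0.36. Of these 16, 5 passed through the control library alone, Pcdh18 among them, which fixed their direction. On a mean of 5 FPKM it was 4 of 14, against 9.86% of genes. After centring it was 1 of 16, or 6.25%, against 6.48% of genes, so the share of 2-fold lower members was then at the background.

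**Figure D2:**
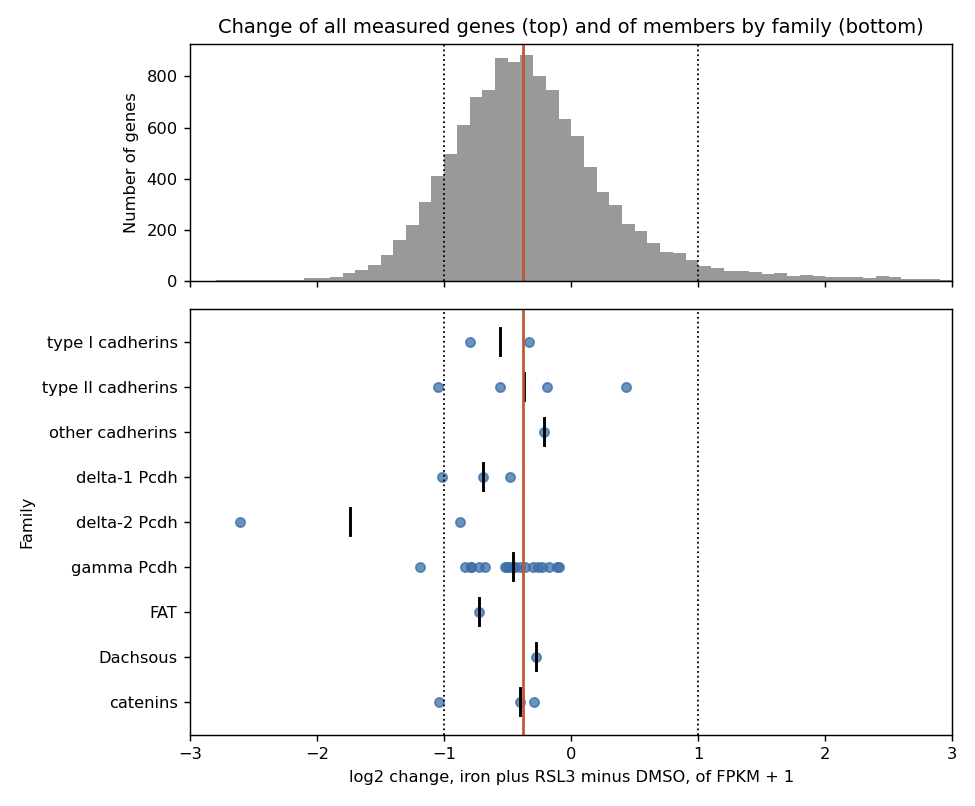
Log2 change of FPKM + 1, iron plus RSL3 minus DMSO, for all 11771 measured genes (top, number of genes per bin of 0.1) and for the 36 measured members by family (bottom, 1 point per gene, black bar at the family median); 57 genes past 3 in either direction fall outside the axis. The line marks the median of all genes at -0.38 and the dotted lines mark 2-fold, which only Pcdh18, Pcdhga12, Cdh11, Ctnnd1 and Pcdh7 pass.

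Promoter sequences are shown for the members past 2-fold that have an entry in the RefSeq table used and may be printed, and for Pcdh17, which had the largest ratio of treated to control FPKM among members above 0 in both libraries and was chosen after its values were seen. Of the 105 members, 31 have an entry, Cdh11 not among them. Each window runs from 250 bases before to 50 bases after the RefSeq start nearest to the annotated gene start, 5′ to 3′ on the gene's strand, in build GRCm38.p6. The windows lie at chr3:49757267-49757566 (minus strand, Pcdh18), chr5:57717831-57718130 (plus strand, Pcdh7), chr2:84650691-84650990 (minus strand, Ctnnd1) and chr14:84443313-84443612 (plus strand, Pcdh17). Capitals mark matches to any of 5 motifs searched on both strands.
Pcdh18: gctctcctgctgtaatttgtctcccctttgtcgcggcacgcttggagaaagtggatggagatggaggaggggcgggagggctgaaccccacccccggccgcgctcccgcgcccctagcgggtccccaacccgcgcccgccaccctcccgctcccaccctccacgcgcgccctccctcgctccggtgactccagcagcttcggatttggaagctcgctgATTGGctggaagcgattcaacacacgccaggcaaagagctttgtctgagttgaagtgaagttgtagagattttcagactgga
Pcdh7: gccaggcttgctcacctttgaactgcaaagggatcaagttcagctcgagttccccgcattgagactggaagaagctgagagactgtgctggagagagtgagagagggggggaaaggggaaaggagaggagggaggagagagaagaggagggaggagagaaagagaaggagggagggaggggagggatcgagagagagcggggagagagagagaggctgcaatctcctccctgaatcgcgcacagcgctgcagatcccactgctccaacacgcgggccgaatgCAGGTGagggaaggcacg
Ctnnd1: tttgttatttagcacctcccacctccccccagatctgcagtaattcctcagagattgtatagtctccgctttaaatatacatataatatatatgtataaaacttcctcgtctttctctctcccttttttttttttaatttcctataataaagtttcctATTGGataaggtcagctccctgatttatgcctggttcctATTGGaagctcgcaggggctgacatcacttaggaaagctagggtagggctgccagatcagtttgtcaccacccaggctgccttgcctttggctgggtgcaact
Pcdh17: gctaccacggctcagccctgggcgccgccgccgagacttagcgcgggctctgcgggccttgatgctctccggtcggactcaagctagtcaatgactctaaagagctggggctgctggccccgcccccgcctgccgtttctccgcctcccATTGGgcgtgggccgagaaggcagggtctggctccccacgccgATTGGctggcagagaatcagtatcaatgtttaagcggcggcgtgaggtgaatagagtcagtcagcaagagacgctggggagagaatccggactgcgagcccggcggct

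The motifs were the CCAAT box (CCAAT, in 37.4% of all 32817 windows of 300 bases), the AP-1 site (TGANTCA, 7.81%), the core of the antioxidant response element (TGACNNNGC, 12.4%), the TEAD site (GGAATG, 14.7%) and the E-box that Snail factors bind (CAGGTG, 20.2%). No matches overlapped in the printed windows. The Pcdh18 window holds 1 CCAAT box on the opposite strand, 32 bases before the start. The Ctnnd1 window holds 2, at 92 and 53 bases before the start, and so does the Pcdh17 window, at 101 and 58 bases. The Pcdh7 window holds no CCAAT box and 1 Snail E-box, 32 bases after the start. The windows of Pcdh18 and Pcdh17 are rich in G and C (63.0% and 65.0%, with 23 and 26 CpG dinucleotides), where the median of all windows is 52.7% and 7. The Ctnnd1 window has 42.7% G and C and 3 CpG dinucleotides. Pcdh18 and Ctnnd1, which were lower, and Pcdh17, which was higher, thus share the CCAAT letters, and a match is only a description.

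Of the 5 type I classical cadherins, 2 were measured and none passed 2-fold. Cdh2, which encodes N-cadherin, the classical cadherin of neural and mesenchymal cells, was at 65.4 FPKM with DMSO and 51.9 FPKM after iron and RSL3, a log2 change of -0.33. Cdh3, the placental P-cadherin, was at 6.01 and 3.03 FPKM, which gives a log2 change of -0.80 and an FPKM 1.98 times lower, under the rule. The change of Cdh2 was near the median of all genes, and that of Cdh3 was farther from 0. The others were below 1 FPKM in both libraries. Cdh4, the retinal R-cadherin, was at 0.412 and 0.149 FPKM, and Cdh15, the muscle M-cadherin, at 0.162 and 0.170 FPKM.

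Cdh1, which encodes the epithelial E-cadherin, was almost absent. It was at 0.0137 FPKM with DMSO and 0.123 FPKM after iron and RSL3. If 1 step is 1 fragment, and on its longest transcript, this is about 1 and 10 fragments. The ratio of 9.16 has an exact 95% binomial interval from 1.30 to 397, for counting error only. Among other epithelial genes, Epcam was at 0.0877 and 0.652 FPKM, Krt8 at 0.0724 and 0.440 FPKM, Cldn4 at 0 and 0.783 FPKM and Cldn7 at 0.0869 and 0.0394 FPKM. Krt19 was at 1.94 and 9.39 FPKM and was the 1 measured gene of 8 epithelial markers. The 8 summed to 2.64 and 12.3 FPKM, and Krt5 and Tjp3 were listed at 0. Their part in the Cdh1 value was not tested.

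Type II classical cadherins were represented by Cdh11, OB-cadherin, which is known from osteoblasts, fibroblasts and other mesenchymal cells. Cdh11 (chromosome 8, 102632095 to 102785642, GRCm38) was at 167 FPKM with DMSO and 80.3 FPKM after iron and RSL3. The FPKM was 2.08 times lower, a log2 change of -1.05, which became -0.83, under the rule, after centring. Cdh11 carried most of the family, whose sum went from 172 to 84.8 FPKM. As Cdh2 changed less, the ratio of Cdh2 to Cdh11 transcripts was 0.392 with DMSO and 0.646 after treatment. Mesenchymal markers differed in both directions beside it, with Pdgfra at 47.4 and 27.4 FPKM, Col3a1 at 220.2 and 119 FPKM and Vim at 1133 and 1900 FPKM. The median log2 change of the 15 mesenchymal markers was -0.07, and none passed 2-fold.

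The other type II members were weak. Cdh6, the kidney K-cadherin, was at 2.47 and 1.35 FPKM, and Cdh10 at 1.16 and 0.894 FPKM. Cdh24 went the other way, at 1.20 and 1.97 FPKM, and its log2 change of 0.43 lay between 0.34 and 0.58 under the scalings tried. It was the only measured member above 0 in the deposited scale. Cdh5, the endothelial VE-cadherin, was at 0.0548 and 0.188 FPKM. Of 8 endothelial markers, Pecam1 was at 0.0510 and 0.934 FPKM, Tek at 0.414 and 0.197 FPKM, and Cldn5, Emcn and Tie1 were listed at 0 in both libraries. The 8 summed to 4.75 and 6.13 FPKM, mostly Flt1, and their part in the Cdh5 value was not tested. Cdh7, Cdh20 and Cdh22 were listed at 0 in both libraries, Cdh8, Cdh9 and Cdh19 in the treated library, and Cdh12 in the control.

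Among the atypical cadherins, Cdh13 was the measured one, at 4.75 and 3.97 FPKM, a log2 change of -0.21. It encodes T-cadherin, which is held by a lipid anchor, has no catenin-binding tail and binds adiponectin. Cdh26 was next, at 0.890 and 0.321 FPKM, followed by Cdh17, the liver-intestine cadherin, at 0.253 and 0.437 FPKM. Cdh23 and Pcdh15, which together form the tip links of hair cells, stayed under 0.05 FPKM in both libraries.

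**Figure D3:**
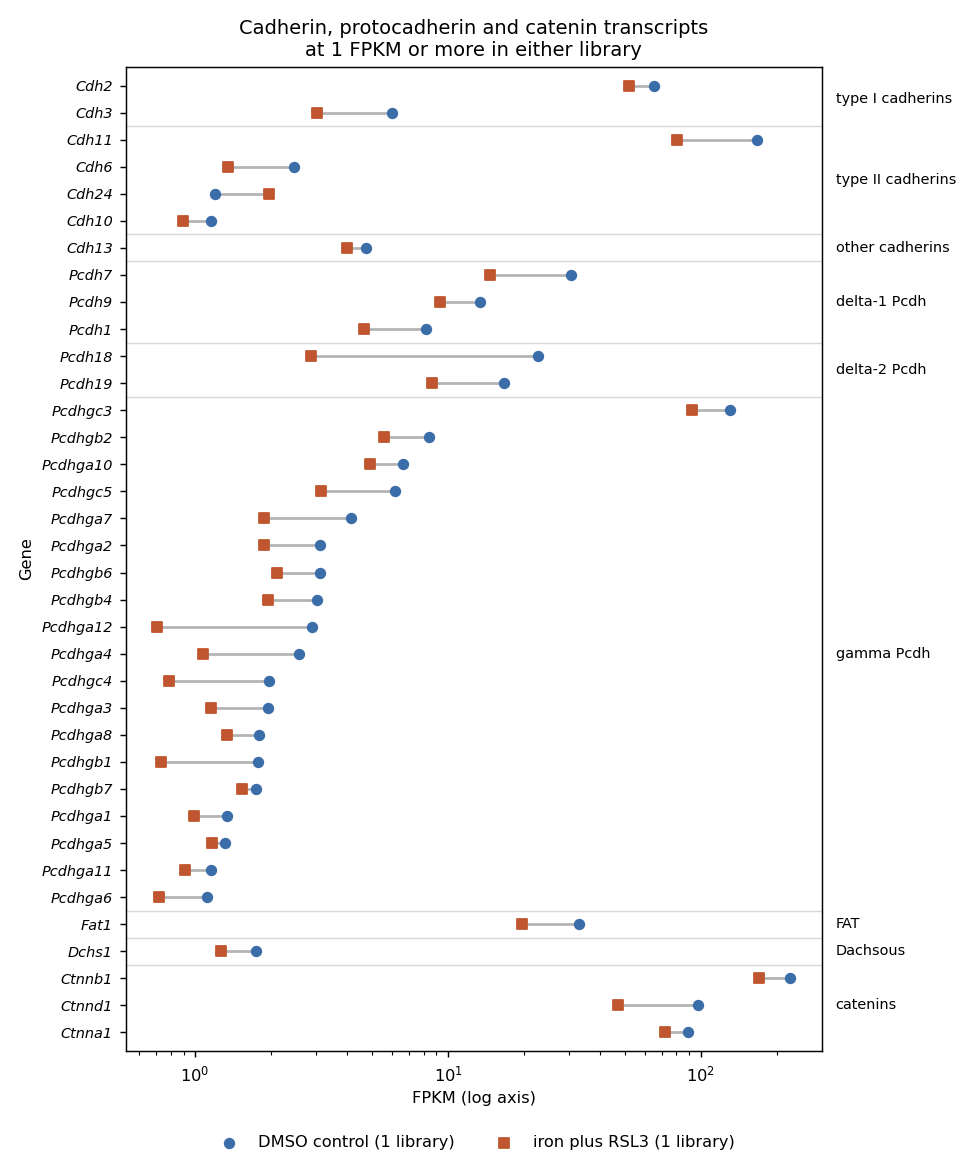
FPKM (log axis) of the 36 members at 1 FPKM or more in either library, grouped by family, with the DMSO control as circles and the iron plus RSL3 library as squares (1 library each). The treated value lies left of the control value in 35 of the 36, with Cdh24 the exception, and in 74.3% of all measured genes it is the lower one. The widest gap is that of Pcdh18 at 22.7 and 2.88 FPKM.

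Non-clustered protocadherins of the delta groups, known from axon guidance and cell sorting in the embryo, included the measured member with the largest difference, Pcdh18. Their 12 members, including 3 of other groups, summed to 92.8 FPKM with DMSO and 41.4 FPKM after iron and RSL3. Pcdh18 (chromosome 3, 49743296 to 49757325), a delta-2 protocadherin that binds the adaptor DAB1, was at 22.7 FPKM with DMSO and 2.88 FPKM after iron and RSL3. The log2 change was -2.61, the FPKM was 7.88 times lower, and no alternative tried took it under 2-fold. It was the only member past 3-fold on the log2(FPKM + 1) scale. Its share of all cadherin and protocadherin FPKM was 3.99% with DMSO and 0.857% after treatment. Pcdh18 is a short gene of 14030 bases with 4 exons, and it shares no exonic bases with another member.

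The other delta-2 members differed from it. Pcdh19, an X-linked delta-2 protocadherin that works together with N-cadherin, was at 16.6 and 8.62 FPKM, with a log2 change of -0.88 that passed the rule with equal totals (-1.02). Pcdh17 (chromosome 14, 84443563 to 84539002), which like Pcdh10 and Pcdh19 can recruit the WAVE actin regulators, was at 0.0544 FPKM with DMSO and 0.643 FPKM after iron and RSL3. On its longest transcript this is about 10 and 132 fragments, and the ratio of 12.1 has an exact 95% binomial interval from 6.37 to 25.8. On its shortest transcript it is about 2 and 22 fragments, with an interval from 2.48 to 88.4. As it stayed under 1 FPKM it was not among the measured genes. Pcdh10 was at 0.245 and 0.448 FPKM, and Pcdh8 at 0 and 0.0338 FPKM. On its longest transcript Pcdh8 had about 0 and 2.75 fragments, and the interval of its ratio starts at 0.379, so its direction is open. Within the delta-2 group, the 2 measured members thus had the lower value in the treated library and the weak Pcdh10 and Pcdh17 the higher one.

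Of the delta-1 group, Pcdh7 (chromosome 5, 57717967 to 58133230) was at 30.6 and 14.6 FPKM, which gives a log2 change of -1.02, and of -0.81, under the rule, after centring. Its exons share 2235 bases with a gene on the opposite strand, 4932441J04Rik, and reads of the 2 cannot be told apart without strand. Pcdh9 was at 13.4 and 9.29 FPKM and Pcdh1 at 8.16 and 4.66 FPKM, log2 changes of -0.49 and -0.70. Pcdh11x was at 0.0672 and 0.0989 FPKM. All 3 measured members of the group had a negative change, as had 74.3% of all measured genes. Pcdh20, of neither delta group, stood just under the 1 FPKM limit at 0.870 FPKM in the control and was at 0.127 FPKM in the treated library. That is about 75 and 12 fragments on its longest transcript, a ratio of 0.147 with an exact 95% binomial interval from 0.0725 to 0.271. Pcdh12, an endothelial protocadherin, was at 0.0225 and 0 FPKM.

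The 3 protocadherin clusters lie next to each other on chromosome 18 and were used very unequally. The γ cluster summed to 185.6 and 125.9 FPKM, the β cluster to 3.74 and 2.09 FPKM and the α cluster to 0.622 and 0.343 FPKM. The 3 ratios of treated to control sums, 0.679, 0.558 and 0.552, were all below 1. Genes of the γ cluster join their own first exon to constant exons that all of them share, so 27.8% to 66.8% of the exonic bases of a γ gene belong to other members too. For the α cluster this is 38.0% to 54.9%. How fragments in the shared exons were divided is not given in the sources used here, so the values of single α and γ genes are uncertain and the sums are firmer.

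Pcdhgc3, a C-type γ protocadherin, dominated the γ cluster at 130.4 FPKM with DMSO and 92.3 FPKM after iron and RSL3, a log2 change of -0.49. The other 21 γ genes summed to 55.2 and 33.6 FPKM. By type, the 12 A-type genes summed to 28.5 and 17.2 FPKM, the 7 B-type genes to 18.6 and 12.5 FPKM and the 3 C-type genes to 138.5 and 96.3 FPKM. The ratios were 0.602, 0.671 and 0.695, and that of the C type rests on Pcdhgc3. The other C-type genes were Pcdhgc4 at 1.97 and 0.792 FPKM and Pcdhgc5 at 6.15 and 3.14 FPKM, and the median log2 change was -0.37 in the A type, -0.46 in the B type and -0.73 in the C type. In single genes, 21 of 22 had a lower value in the treated library and Pcdhgb5 was at 0.382 and 0.405 FPKM. Of all measured genes 74.3% had the lower value there, and as γ genes share exons, their signs are not independent. Of the 19 measured, 1 passed 2-fold, Pcdhga12 at 2.89 and 0.709 FPKM, a log2 change of -1.19. Pcdhga12 reached 1 FPKM in the control library alone, which fixed its direction. With a pseudocount of 0.1 FPKM, Pcdhga4, Pcdhga7, Pcdhgb1 and Pcdhgc4 passed as well. Pcdhgb1 and Pcdhgc4 also reached 1 FPKM in the control library alone, which fixed their direction. The next most abundant genes were Pcdhgb2 at 8.40 and 5.60 FPKM and Pcdhga10 at 6.62 and 4.91 FPKM. Pcdhgc3 shares 1559 exonic bases with the opposite-strand gene BC037039. Pcdhga10 shares 2613 and Pcdhga12 422 with Gm26672, and some other γ genes overlap opposite-strand genes too. Taken as 1 sum, the cluster did not pass 2-fold.

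Genes of the β cluster have their whole coding region in 1 exon. They share few or no exonic bases with other members, so by exon position they can be told apart better than γ genes. Some overlap genes on the opposite strand, as Pcdhb12 does over 1927 of 3034 bases with Gm37446. None of the 22 reached 1 FPKM, with Pcdhb22 the highest at 0.985 and 0.439 FPKM, followed by Pcdhb17 at 0.649 and 0.515 FPKM. Of the 22, 16 had a lower value in the treated library, 4 a higher one and 2 were listed at 0 in both. Pcdhb16 was at 0.350 and 0.0638 FPKM, and Pcdhb5 went the other way, at 0.183 and 0.379 FPKM. The 18 genes with a single exon and transcript held about 205 and 126 fragments in the DMSO and treated libraries. Relative to library size the ratio is 0.563, with an exact 95% binomial interval from 0.447 to 0.706. Over all 54 members under 1 FPKM in both libraries and above 0 in either, 33 (61.1%) had the lower value in the treated library, against 54.3% of all genes at such levels.

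The α cluster, best known from serotonergic and other neurons, was nearly silent. Of its 14 rows, 9 were listed at 0 in both libraries. Pcdhac2 was the highest, at 0.376 and 0.209 FPKM. The symbol Pcdha11 stood on 2 rows with different identifiers, 1 at 0.127 and 0.0406 FPKM and the other at 0 in both libraries. Pcdha1 was at 0 and 0.0666 FPKM. Neuronal markers were split, with Rbfox3 and Dcx listed at 0 in both libraries. Gap43 was at 28.9 and 30.6 FPKM and Tubb3 at 21.0 and 16.1 FPKM.

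**Figure D4:**
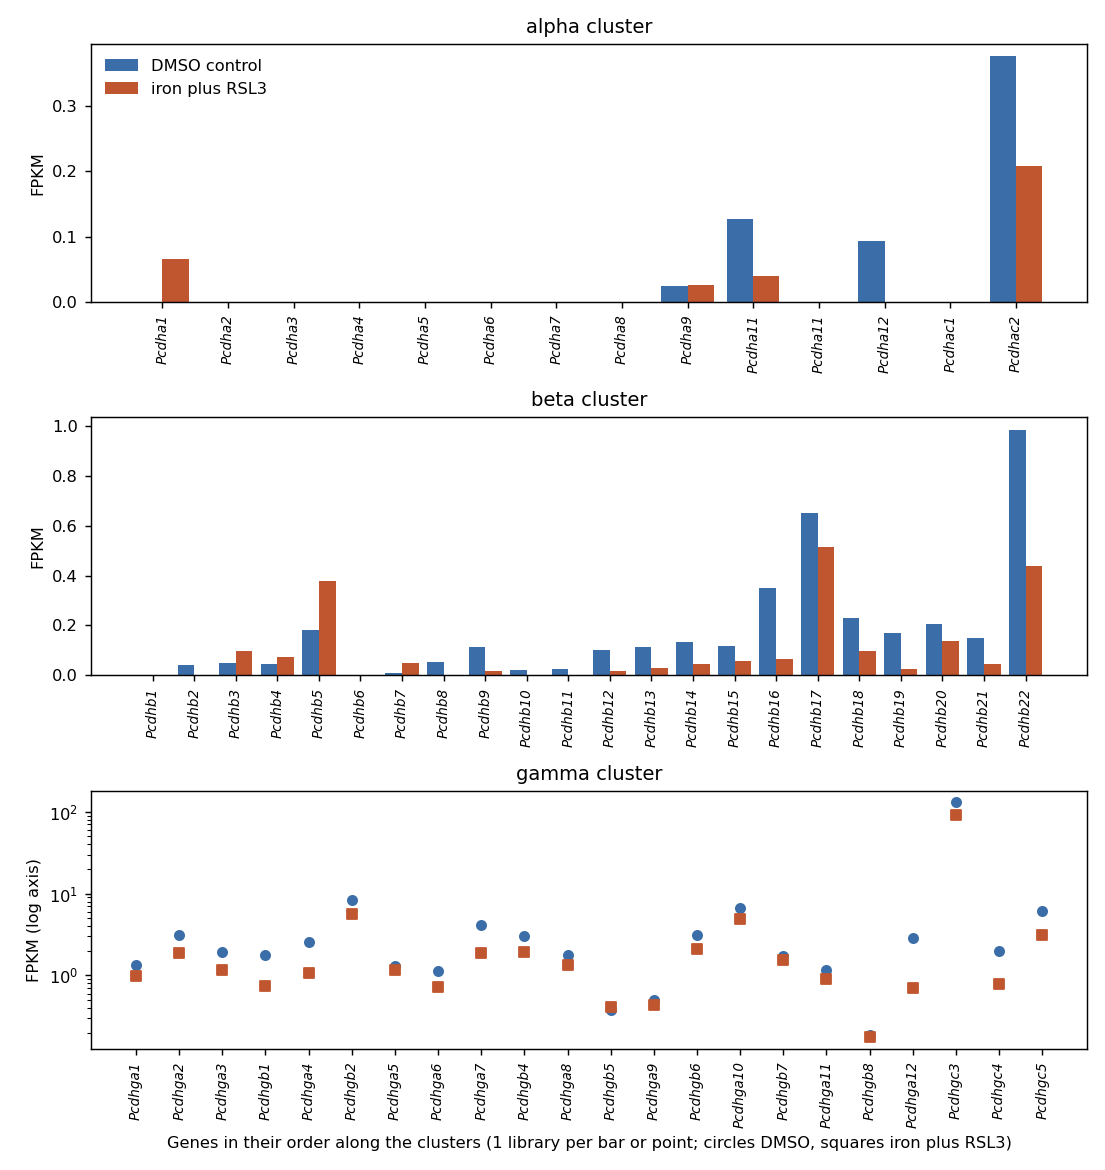
FPKM of the α (14 rows), β (22) and γ (22) protocadherin genes in their order along the clusters, for the DMSO control (blue) and the iron plus RSL3 library (orange), as bars from 0 for α and β and as points on a log axis for γ. Only γ genes exceed 1 FPKM, and Pcdhgc3 stands far above the others at 130.4 and 92.3 FPKM. The treated library has the lower value in 21 of 22 γ genes, which share exons, and in 74.3% of all measured genes.

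Of the giant cadherins, Fat1 was the abundant member. FAT1 binds Ena/VASP actin regulators and takes part in Hippo signalling. Fat1 (chromosome 8, 44935447 to 45052257) was at 33.0 and 19.6 FPKM, with a log2 change of -0.72. Because its longest transcript has 14814 bases, its share of cadherin and protocadherin fragments (FPKM times length) was 14.1% in the control, against 5.80% by FPKM. Fat4 was at 0.993 and 0.392 FPKM, a ratio of 0.397 in fragments with an exact 95% binomial interval from 0.316 to 0.496. Its ligand Dchs1 was at 1.75 and 1.27 FPKM. The 4 FAT genes all had the lower value in the treated library, though Fat2 and Fat3 stayed under 0.01 FPKM. So had 74.3% of all measured genes and 54.3% of genes under 1 FPKM in both libraries and above 0 in either. Dchs2 was listed at 0 in both libraries. Celsr1, Celsr2 and Celsr3, the vertebrate forms of Flamingo, lay between 0.0116 and 0.170 FPKM.

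The catenins were among the most abundant members and summed to 411.1 and 289 FPKM. Ctnnb1 (chromosome 9, 120929216 to 120960507), which encodes β-catenin, the shared subunit of adhesion and WNT signalling, was at 224.8 FPKM with DMSO and 169.7 FPKM after iron and RSL3. Its log2 change of -0.40 was near the median of all genes, and 759 of its exonic bases overlap Ulk4 on the opposite strand, which was at 0.591 and 0.170 FPKM. Ctnna1, which encodes αE-catenin, the link to actin, was at 88.6 and 72.3 FPKM, which gives a log2 change of -0.29. Ctnnd1 (chromosome 2, 84600071 to 84650765), which encodes p120-catenin, the subunit that holds cadherins at the membrane, was at 97.8 and 47.1 FPKM. The FPKM was 2.08 times lower, and the log2 change of -1.04 became -0.82, under the rule, after centring.

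The catenins thus differed among themselves. Per Ctnnb1 transcript, Ctnnd1 was at 0.435 with DMSO and 0.277 after treatment, ratios that no scaling of the libraries can alter. The 18 classical cadherins summed to 244.3 and 140.2 FPKM. Set against that sum, Ctnnb1 was at 0.920 and 1.21, Ctnna1 at 0.363 and 0.5155 and Ctnnd1 at 0.4001 and 0.336. Ctnnd1 and Cdh11 were thus lower by like amounts (2.08 times each), while Ctnnb1, Ctnna1 and Cdh2 had changes nearer 0.

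Genes that work with the members were taken from 11 lists. Over all lists, 10 of 91 measured genes were at least 2-fold lower and none was 2-fold higher, where 11.8% and 4.25% of all measured genes were, so the share of lower genes is near the background. The counts of single lists below are of few genes and are descriptions. The median log2 change was -0.31, beside -0.38 for all measured genes. Among 9 measured cytoplasmic partners of cadherins, 2 were lower. Vcl, which encodes vinculin, the actin linker that binds stretched α-catenin, was at 134 and 56.0 FPKM, and Arvcf, a relative of p120-catenin, at 3.41 and 1.17 FPKM. Jup, which encodes plakoglobin, a relative of β-catenin, was at 15.3 and 18.2 FPKM. Among 11 core planar polarity genes, 2 were lower, Prickle1 at 7.92 and 2.71 FPKM and Vangl1 at 5.28 and 1.77 FPKM. None of 10 FAT and Dachsous partners passed 2-fold, with Vasp at 53.7 and 48.7 FPKM and Dlg1 at 37.7 and 35.5 FPKM.

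Of 14 genes of β-catenin turnover and readout, Btrc was lower, at 9.95 and 3.27 FPKM. It encodes the ubiquitin ligase subunit that recognises phosphorylated β-catenin. Axin2, a standard target gene of β-catenin, was at 0.241 and 0.233 FPKM and Lef1 at 0.583 and 0.570 FPKM, both under the limit for measured genes. Of 11 regulators of the protocadherin clusters, 2 were lower. Ctcf, whose protein loops the cluster promoters to their enhancers, was at 16.7 and 7.59 FPKM, and Setdb1, a histone methyltransferase, at 11.01 and 4.63 FPKM. Cohesin genes stayed within 2-fold, with Rad21 at 45.9 and 32.0 FPKM. Cyfip1, a subunit of the WAVE complex, was at 34.6 and 12.4 FPKM, the 1 lower gene among 8 partners of protocadherin signalling. None of 9 cadherin sheddase and γ-secretase genes passed 2-fold, the most abundant being Adam9 at 99.1 and 96.9 FPKM and Ncstn at 88.2 and 83.2 FPKM. Of 7 measured factors of the epithelial-mesenchymal transition, Snai1 at 64.2 and 30.7 FPKM and Snai2 at 16.6 and 7.76 FPKM were lower, with a log2 change of -1.04 in Snai1 and a smaller one in Snai2, both at the edge of the rule. Twist2 was at 299 and 366 FPKM, Zeb1 at 13.9 and 10.9 FPKM and Zeb2 at 20.8 and 18.7 FPKM.

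**Figure D5:**
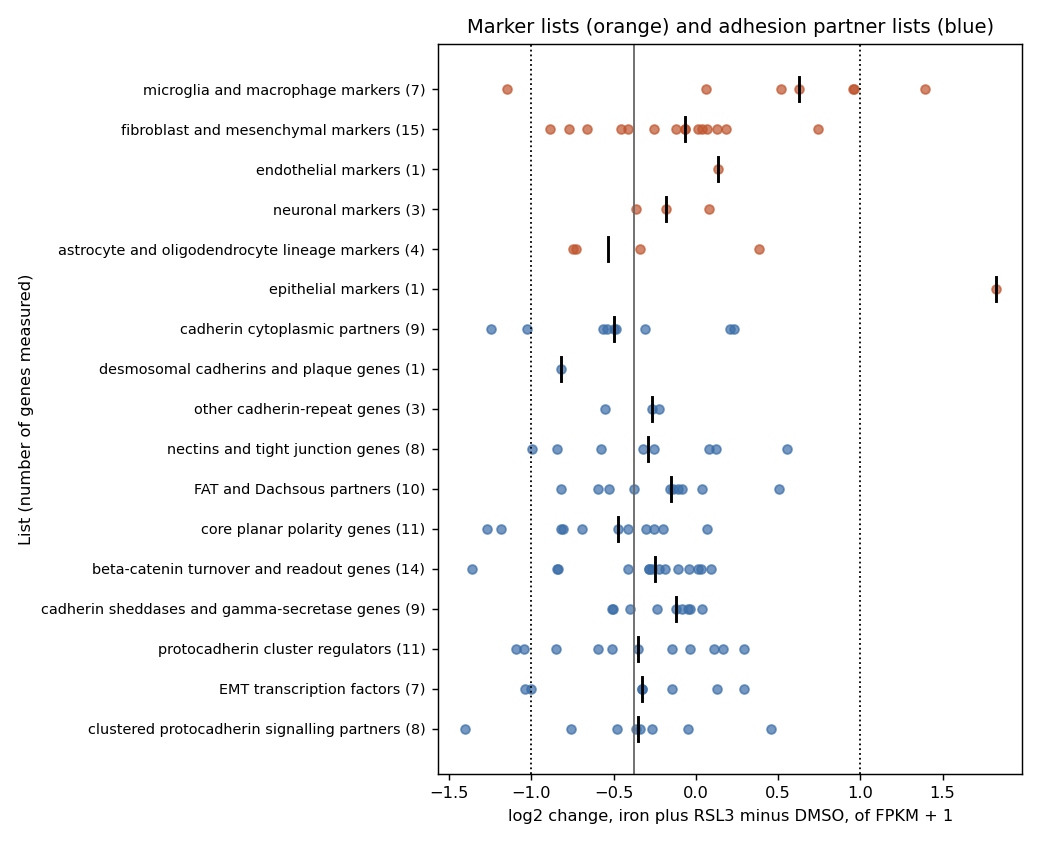
Log2 change of FPKM + 1, iron plus RSL3 minus DMSO, of the measured genes of 6 marker lists (orange) and 11 adhesion partner lists (blue), 1 point per gene with a black bar at the median. The grey line marks the median of all measured genes at -0.38 and the dotted lines mark 2-fold; no gene of the partner lists lies above the upper one.

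Many members are long genes. Of the 36 measured, 21 span over 100 kb, and 2 of these 21 (Cdh11 and Pcdh7) were at least 2-fold lower, where 5.64% of all 1436 measured genes of that span were. After centring, Cdh11 and Pcdh7 were under the rule, with log2 changes of -0.83 and -0.81. Of 13 members spanning 20 to 100 kb, Ctnnd1 and Pcdhga12 were lower as deposited, where 12.7% of all genes of that span were. Most members of both span classes are γ genes of the same cluster, which share exons, so they are not independent. The median log2 change of the long members was -0.49 and that of all long genes -0.35. Pcdh18, the member with the largest difference, was among the 2 measured members under 20 kb, with Cdh24, the member above 0, as the other.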

How the data were processed

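Total RNA of mouse cells was sequenced as poly(A) libraries, 1 per condition. The deposited table gives FPKM per gene as computed by the authors; HISAT2, StringTie, DESeq2, edgeR and build GRCm38 are named in the submitters' processing notes, without versions or roles. FPKM is scaled to each library's total, so a change in a few abundant genes shifts all others. From the deposited FPKM, log2(FPKM + 1) was taken per gene, and genes at 1 FPKM or more in either library (11771) were called measured. A gene was called higher or lower at 2-fold (1 on the log2 scale). With 1 library per group no test was possible, nothing measures the spread between cultures, and edgeR and DESeq2 were not run here. Low FPKM values sit partly on steps, but only 35.3% of 380 values in the control and 38.0% of 382 in the treated library were whole within 0.05, so reads were not recovered and the fragment numbers are estimates. Intervals of ratios are exact 95% binomial intervals for counting error only, and PCR copies are not independent molecules. Genes were matched to GENCODE M21 on GRCm38 (22022 of 23466 rows, all 105 members), and 27 symbols turned into dates were restored by gene identifier. Promoters came from RefSeq, GRCm38.p6. The genes named were the members past 2-fold, the most abundant members of each family, and up to 3 genes past 2-fold or else the most abundant genes of each list. Others named were chosen after their values were seen. 1 marker gene and the summed level of its list are not reported here. The members and lists were chosen with earlier results of these data known. The alternatives were other pseudocounts, filters, scalings and size rules. The scripts were tested on simulated data and used Python 3.11.15, pandas 2.3.3, numpy 2.4.6, scipy 1.17.1 and matplotlib 3.10.9.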

Additional observations from a re-analysis of the deposited data

How the results depend on the processing

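The number of members at least 2-fold lower, 5 as deposited, was 9 with a pseudocount of 0.1 FPKM, 2 after centring on the median ratio, 14 at 1.5-fold and 1 at 3-fold. The shares of all measured genes under these settings were 20.2%, 6.82%, 34.7% and 1.15%, against 11.8% as deposited. No member was 2-fold higher under any of these. The members' median log2 change of -0.49 became -0.13 without a filter, where that of all genes was -0.20. Without a filter the members thus no longer had the lower median. After centring the members' median was -0.31. Centring moved the median of all genes from -0.38 to -0.19 and their split to 803 lower and 676 higher. With equal totals the split was 2032 lower and 431 higher. By family, centring left 0 lower members among type II cadherins, delta-1 protocadherins and catenins (1 each as deposited). At 3-fold these 3 families and the γ cluster had 0. At 1.5-fold there were 1 type I and 1 type II cadherin, 2 delta-1 and 2 delta-2 protocadherins, 6 of 19 measured γ genes, 1 FAT gene and 1 catenin. Equal totals gave 2 delta-2 genes. In the γ cluster, 1 lower gene as deposited became 5 with a pseudocount of 0.1 FPKM, 0 with a filter of 5 FPKM and 0 with its rows summed, an alternative chosen after seeing the data. Of the marker and partner genes, 11 were lower and 2 higher. Lower ones became 5 after centring, 29 at 1.5-fold and 0 at 3-fold, and higher ones 4 with pseudocounts of 0.1 and 0.5 FPKM and after centring, 6 at 1.5-fold and 1 at 3-fold. By FPKM times length, the control shares of FAT, Dachsous and CELSR genes were 14.6%, 0.542% and 0.0782%, against 5.98%, 0.307% and 0.0422%. With span limits of 50 and 200 kb, 25% of the longest members were lower (1 of 4), against 5.05% of all genes of that span. That 1 gene was Pcdh7, which was under the rule after centring (-0.81). The cause of these shifts was not tested. No paired analysis was possible because each condition had 1 library.

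Members under 1 FPKM rest on few fragments, and values of single α and γ genes depend on how shared exons were counted. Neither library can be left out, so no difference here has a replicate check.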

Other observations

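Other adhesion systems showed other values in the same libraries. Of 8 measured nectin and tight junction genes, none passed 2-fold. Nectin2 was the most abundant at 34.9 and 38.1 FPKM, Jam3 was at 21.7 and 18.0 FPKM, and Nectin1 was just under the rule at 7.82 and 3.42 FPKM. Desmosomes, the junctions of epithelia and heart muscle, were represented by 1 measured gene of 10, Pkp2 at 11.7 and 6.18 FPKM, while Dsc1, Dsg1a, Dsg2 and Dsg3 were listed at 0 in both libraries. Of 11 other cadherin-repeat genes, 3 were measured and none passed 2-fold. Clstn1, which encodes the kinesin adaptor calsyntenin-1, was at 20.8 and 13.9 FPKM, and Clstn2 at 2.32 and 1.85 FPKM.

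Among the marker lists, none of 4 measured genes of 10 astrocyte and oligodendrocyte lineage markers passed 2-fold. Cspg4, which also marks pericytes, was at 19.98 and 15.6 FPKM, and Slc1a3 at 2.14 and 3.10 FPKM. None of 3 measured neuronal markers of 8 passed 2-fold. Of the microglia and macrophage markers, Tmem119, which some fibroblasts and osteoblasts also express, was at 59.1 and 26.1 FPKM, and the lysosomal Cd68 at 3.36 and 10.4 FPKM. Others also had the higher value in the treated library, with Trem2 at 0.728 and 2.36 FPKM, C1qa at 0.485 and 1.88 FPKM, C1qb at 1.24 and 2.46 FPKM and Tyrobp at 1.81 and 3.02 FPKM, though none of these 4 passed 2-fold on the log2(FPKM + 1) scale. Csf1r at 0.471 and 0.394 FPKM and P2ry12 at 0.0506 and 0.0356 FPKM had the lower value there. Aif1, Cx3cr1 and Fcrls were at 0 in both libraries.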
